A study of Homo sapiens with 12 samples.

Results

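The comparison concerns the response of the diffuse large B-cell lymphoma (DLBCL) cell line U2932 to rituximab (R), a chimeric antibody against CD20, by comparing 4 of the 12 RNA sequencing libraries of the series. Wild-type cells had received either R or a human IgG1 isotype control at 20 µg/mL for 4 h, each treatment has 2 libraries, and every gene with enough counts was described. The other 8 libraries are U2932 treated with ofatumumab (OF), a human antibody that binds CD20 at a different epitope, and the DLBCL line TMD8 treated with R, OF or isotype control, at the same dose and time. The line had been split and kept as separate cultures for a week, and libraries 1 and 2 of each treatment come from these 2 cultures of a single line, so the spread between libraries is that between cultures and not between patients.

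CD20, encoded by MS4A1, is a membrane protein of B cells from the pre-B stage until plasma cell differentiation. Antibodies bound to it can recruit complement and effector cells, and can also act on the cell directly by clustering CD20 and signalling through associated kinases and calcium. The cells here grew alone in medium with heat-inactivated serum, so the comparison concerns transcripts of B cells in the absence of added effector cells.

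The 4 libraries held between 17226285 and 21191535 counts on 58884 genes. No count was found for 32025 of these genes, and 14635 passed the filter on low counts and were tested. All 8 B-cell markers examined were detected, and their summed level was 3463 and 3635 CPM (TMM-normalized counts scaled to a common library size) with R and 2495 and 2431 CPM with the isotype control. MS4A1 and CD79A were the only called members of this list, while PAX5 had a log2 fold change of −0.33 and POU2AF1 of 0.01. The study's methods place U2932 in the activated B-cell-like subtype, and 6 of 8 markers of that subtype were above 1 CPM in every library, whereas CCND2 and ENTPD1 were below 1 CPM. The 8 markers of the germinal centre subtype were also all detected. Of the T and NK cell markers, CD3D, CD3G, CD2, NKG7 and GNLY had no count, and of those of monocytes and macrophages CD68, FCGR3A, MARCO, C1QA and C1QB had none. Before TMM scaling, TRAC, the constant region of the T-cell receptor alpha chain, was at 7.31 to 9.53 CPM and EPCAM, an epithelial adhesion molecule, at 33.9 to 41.1 CPM. CD8A reached 1.04 CPM in 1 library, and the other markers of T and NK cells, monocytes and macrophages, fibroblasts and epithelium that had any count stayed below 1 CPM in every library. In a bulk sample, fewer cells of a type and less RNA per cell cannot be told apart.

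R changed a broad set of transcripts in both directions. Of the 14635 genes tested, 760 (5.19%) were higher and 734 (5.02%) were lower with R in edgeR's quasi-likelihood test, where a call needed both an adjusted p under 0.10 and a 1.5-fold difference. Most changes were moderate, and 186 genes rose and 253 fell by at least 2-fold, while 10 rose and 29 fell by at least 4-fold. The genes that fell were the less abundant, with a median of 5.53 CPM against 15.5 CPM for those that rose and 19.4 CPM for all tested. With library size as the only scaling, the split was 480 higher and 1186 lower and the median of all genes shifted from −0.02 to −0.12 on the log2 scale, so the balance of the directions depends on the scaling.

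**Figure D1:**
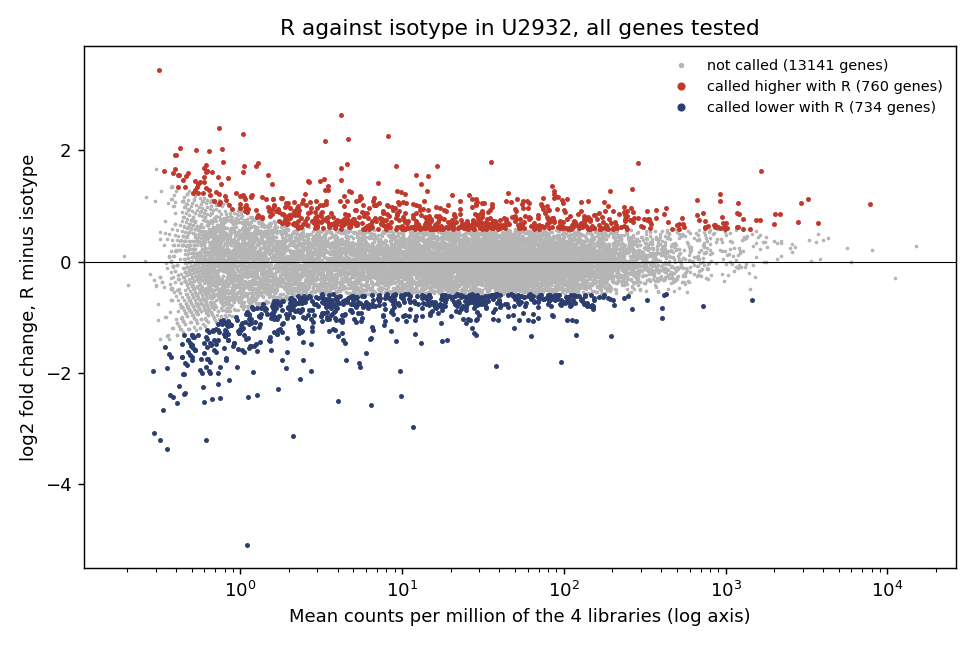
Each point is a gene tested, with its mean level over the 4 libraries in CPM on a logarithmic x axis and the log2 fold change of R over isotype on the y axis. The 760 genes called higher are red, the 734 called lower are blue, and genes that were not called are grey.

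The 2 cultures gave similar changes, where libraries were paired by replicate number, taken here to be the culture. Across all genes tested, the log2 fold changes of culture 1 and culture 2 had a Pearson correlation of 0.542 and shared their sign in 73.6% of genes, and in the 8858 genes with a mean of at least 10 CPM the correlation was 0.821. Genes are not independent replicates, so these values describe the libraries and were not tested. The 2 R libraries did not overlap the 2 isotype libraries in 757 of the 760 genes called higher and 732 of the 734 called lower, while 59.8% of all genes tested did not overlap either.

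**Figure D2:**
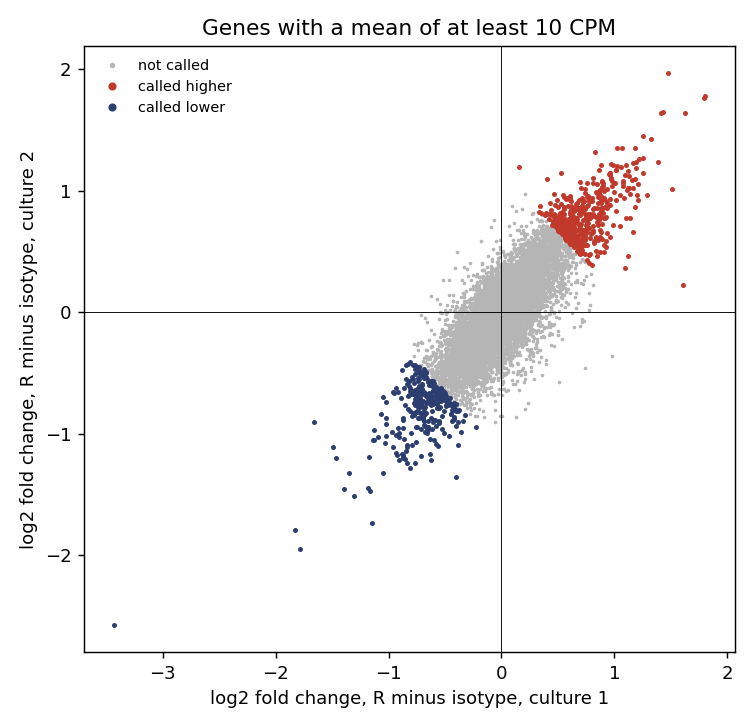
Each point is a gene with a mean of at least 10 CPM, with its log2 fold change of R over isotype in culture 1 on the x axis and in culture 2 on the y axis. Culture 1 and culture 2 stand for replicate numbers 1 and 2. Genes called higher (red) lie at the upper right and genes called lower (blue) at the lower left, along the diagonal.

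The transcript of the antibody's own target rose. MS4A1, at chr11:60455752-60470760 on GRCh38, had 1498 and 1755 CPM with R and 899 and 1003 CPM with the isotype control, and the R libraries lay above both isotype libraries (log2 fold change 0.77, SE 0.0831, adjusted p = 1.09e-07). Among 20 B-cell surface proteins that are targets of antibodies, 3 rose and 1 fell, beside 5.19% of all genes called higher and 5.02% called lower, with a median log2 fold change of 0.23. FCRL5, a receptor of the Fc receptor-like family, rose by 0.72 (SE 0.0989, adjusted p = 4.29e-06), and CD72, an inhibitory coreceptor, rose by 0.73 (SE 0.17, adjusted p = 0.00195). SLAMF7, a receptor of the SLAM family that marks plasma cells, had 83.9 and 87.8 CPM with R and 127 and 136 CPM with the isotype control and fell by 0.61 on the log2 scale. Of 26 genes of B-cell receptor signalling, 3 rose and none fell, with a median of 0.16. They included CD79A, a signalling chain of the receptor (0.85), and PTPN6, the phosphatase SHP-1 (0.78).

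The most significant gene with a higher level was HSPA8, the constitutive cytosolic HSP70 chaperone, and 11 other cytosolic chaperones or their cofactors rose with it. Heat shock proteins fold newly made or damaged proteins, and the transcription factor HSF1 induces their genes by binding heat shock elements, which are alternating GAA and TTC units. HSPA8, at chr11:123057489-123063230, had 2447 and 2568 CPM with R and 792 and 824 CPM with the isotype control, a 3.1-fold change (log2 fold change 1.63, SE 0.0746, adjusted p = 4.54e-14). HSPH1, a nucleotide exchange factor of HSP70, had 382 and 374 CPM with R and 146 and 159 CPM with the isotype control (log2 fold change 1.31, SE 0.0866, adjusted p = 4.77e-11). The HSP90 isoforms rose as well, with HSP90AA1 at 4196 and 4673 CPM with R and 1913 and 2153 CPM with the isotype control (log2 fold change 1.13, SE 0.0767, adjusted p = 6.87e-11) and HSP90AB1 at 4018 and 3856 CPM with R and 1734 and 2039.9 CPM with the isotype control (log2 fold change 1.06, SE 0.0776, adjusted p = 2.19e-10). DNAJB1, the HSP40 that delivers clients to HSP70, had 123 and 116 CPM with R and 56.8 and 51.7 CPM with the isotype control (log2 fold change 1.14, SE 0.0941, adjusted p = 1.71e-09). Of 22 tested members of the cytosolic heat shock list, 12 rose and none fell, beside 5.19% of all genes called higher and 5.02% called lower. The list's median was 0.69, beside −0.02 over all genes. HSPA1A and HSPA1B, which are near-identical copies, did not pass the filter. The members not called included HSF1 (0.42), HSPB1 (−0.03) and SERPINH1, a collagen chaperone (−0.57), and 1 member was called lower with library size only or with a correction for GC content.

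Promoter sequences, taken from RefSeq on GRCh38.p14 as the 250 bases before each gene's start, are shown for genes of the list that carry 2 adjacent heat shock units in this window (GAANNTTC or TTCNNGAA on either strand, in capitals). HSPA8 lay at chr11:123062137-123062386 (minus strand), CHORDC1, a cochaperone of HSP90, at chr11:90223050-90223299 (minus strand), and DNAJA1, an HSP40, at chr9:33025023-33025272 (plus strand).
HSPA8: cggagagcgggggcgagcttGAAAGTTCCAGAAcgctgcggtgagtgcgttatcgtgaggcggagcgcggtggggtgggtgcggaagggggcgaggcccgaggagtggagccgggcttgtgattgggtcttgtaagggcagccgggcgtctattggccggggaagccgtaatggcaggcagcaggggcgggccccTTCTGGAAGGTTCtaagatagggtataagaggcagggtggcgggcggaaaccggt
CHORDC1: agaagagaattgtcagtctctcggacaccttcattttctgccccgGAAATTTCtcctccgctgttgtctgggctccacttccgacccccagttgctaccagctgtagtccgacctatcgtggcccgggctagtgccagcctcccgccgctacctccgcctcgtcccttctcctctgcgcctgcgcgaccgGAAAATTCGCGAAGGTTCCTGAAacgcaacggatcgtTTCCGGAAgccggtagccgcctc
DNAJA1: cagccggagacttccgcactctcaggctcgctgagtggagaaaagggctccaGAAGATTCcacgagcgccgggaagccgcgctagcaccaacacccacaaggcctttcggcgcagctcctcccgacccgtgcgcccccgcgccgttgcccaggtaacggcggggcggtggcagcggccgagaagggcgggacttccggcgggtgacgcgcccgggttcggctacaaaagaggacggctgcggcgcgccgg
DNAJB6, HSPB1 and SERPINH1, which were not called, held the motif as well. Of 11 genes of the list that rose and had a promoter in the table, 3 held this motif, beside 8.65% of the 10297 tested genes with a promoter and 11.7% of all 27305 promoters. HSPA8 and CHORDC1, which rose, and DNAJB6 and SERPINH1, which were not called, also held 3 adjacent units, which 0.291% of tested genes and 0.439% of all promoters hold.

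Other chaperone lists, the cytosolic chaperonin and prefoldin among them, were mostly below the threshold, though the difference between lists was not tested. The counts below stand beside 5.19% of all genes called higher and 5.02% called lower. None of 14 genes of the chaperonin CCT and prefoldin passed the test, with a median of 0.11. Of 12 mitochondrial chaperones and proteases, HSPE1, the mitochondrial HSP10, rose by 0.86 (SE 0.115, adjusted p = 3.42e-06), but it overlaps a read-through gene, so its reads may be split. The list's median was 0.04, and it was −0.05 with library size only. Of 24 endoplasmic reticulum chaperones and unfolded protein response genes, SDF2L1 rose (0.65) and none fell, whereas with library size only none rose and 1 fell. HSPA5, the chaperone BiP that is the standard readout of endoplasmic reticulum stress, had 1137 and 1162 CPM with R and 950.4 and 1014 CPM with the isotype control, a log2 difference of 0.23 that did not reach 1.5-fold. The median of that list was 0.05, and −0.05 with library size only. Of 33 proteasome genes, 5 rose and none fell (median 0.23), including the catalytic subunit PSMB5 (0.62), PSMB3 (0.60) and PSMD7 of the regulatory lid (0.59).

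Genes of the ATF4 response, through which cells restore amino acids when translation is restrained, rose in part. Of 25 tested, 9 rose and 1 fell, with a median of 0.45, beside 5.19% of all genes called higher and 5.02% called lower. PSAT1, an enzyme of serine synthesis, had 119.8 and 126 CPM with R and 52.5 and 55.6 CPM with the isotype control (log2 fold change 1.19, SE 0.0928, adjusted p = 6.98e-10). DDIT4, an inhibitor of mTORC1 known as REDD1, had 20.1 and 23.1 CPM with R and 7.47 and 7.33 CPM with the isotype control (log2 fold change 1.55, SE 0.133, adjusted p = 3.61e-09). CHAC1, which degrades glutathione, had 6.37 and 8.84 CPM with R and 1.41 and 1.88 CPM with the isotype control and rose 4.62-fold (adjusted p = 4.48e-08). SLC7A11, the cystine transporter, rose by 1.26 (SE 0.138, adjusted p = 1.59e-07), and MTHFD2, an enzyme of mitochondrial folate metabolism, rose by 0.77 (SE 0.0861, adjusted p = 2.32e-07). The gene that fell was PPP1R15A, which recruits the phosphatase of eIF2 alpha, at 81.6 and 76.7 CPM with R and 139 and 137 CPM with the isotype control. ATF4 itself (−0.36), ATF3 (−0.05) and DDIT3 (−0.15) were not called. The window before CHAC1, at chr15:40953221-40953470 (plus strand), is shown with its ATF4 element (TGATGNAA on either strand) in capitals.
CHAC1: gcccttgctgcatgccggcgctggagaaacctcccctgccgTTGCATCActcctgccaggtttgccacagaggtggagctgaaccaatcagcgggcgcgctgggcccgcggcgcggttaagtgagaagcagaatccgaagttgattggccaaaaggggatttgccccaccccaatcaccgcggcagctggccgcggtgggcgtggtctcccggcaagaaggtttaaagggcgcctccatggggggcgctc
CHAC1 was the only holder among 8 called members with a promoter, and ASNS and ATF3, which were not called, held it as well. This motif was in 3 of 21 list members with a promoter and in 1.29% of tested genes and 3.19% of all promoters. Among 20 cytosolic aminoacyl-tRNA synthetases, YARS1 rose (0.59) and the median was 0.16, beside 5.19% of all genes called higher. Of 18 NRF2 antioxidant genes, 5 rose and none fell (median 0.33). They included SLC7A11, HMOX1, which degrades haem (1.07), TXN, thioredoxin (0.70), PRDX1 (0.65) and FTL, the ferritin light chain (0.61).

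Genes of cholesterol synthesis and uptake were among those that rose. Cells regulate it through SREBP2, a membrane-bound transcription factor released when sterols fall and retained by INSIG1 when they are plentiful. All 24 tested genes of the list had a positive log2 fold change, with a median of 0.63 beside −0.02 over all genes. Of them, 13 passed the test, or 9 with library size only. Counts in this paragraph stand beside 5.19% of all genes called higher and 5.02% called lower. HMGCS1, which makes the precursor of mevalonate, had 227 and 257 CPM with R and 108 and 123 CPM with the isotype control (log2 fold change 1.07, SE 0.0934, adjusted p = 4.86e-09). MSMO1, a late methyl sterol oxidase, had 115 and 141 CPM with R and 53.7 and 60.6 CPM with the isotype control (log2 fold change 1.16, SE 0.103, adjusted p = 5.11e-09). INSIG1 had 294 and 335 CPM with R and 159 and 158 CPM with the isotype control (log2 fold change 0.99, SE 0.0878, adjusted p = 5.60e-09). SREBF2, which encodes SREBP2, had a log2 fold change of 0.25 and was not called. Of 13 genes of fatty acid synthesis and LXR targets, 3 rose (median 0.24), namely SCD, a fatty acid desaturase (0.71), FADS2 (0.63) and NR1H2, an LXR itself (0.59).

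The windows before INSIG1, at chr7:155297628-155297877 (plus strand), and HMGCS1, at chr5:43313413-43313662 (minus strand), are shown with the CCAAT box (CCAAT on either strand) in capitals, since 15 of 18 cholesterol genes with a promoter held one.
INSIG1: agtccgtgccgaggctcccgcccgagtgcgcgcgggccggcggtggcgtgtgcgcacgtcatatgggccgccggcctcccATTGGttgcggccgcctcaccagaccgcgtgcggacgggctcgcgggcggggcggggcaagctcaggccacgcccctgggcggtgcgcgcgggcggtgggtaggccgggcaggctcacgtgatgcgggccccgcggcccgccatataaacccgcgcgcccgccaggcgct
HMGCS1: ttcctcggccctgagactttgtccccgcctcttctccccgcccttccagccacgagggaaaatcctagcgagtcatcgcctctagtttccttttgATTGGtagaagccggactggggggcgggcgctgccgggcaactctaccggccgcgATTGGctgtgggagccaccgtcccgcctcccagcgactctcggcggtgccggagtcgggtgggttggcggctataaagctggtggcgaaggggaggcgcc
The box was in 35.6% of tested genes and 33% of all promoters. The sterol element searched (TCACCCCAC on either strand) was in 1 of these promoters, that of SREBF2, and in 0.348% of all promoters.

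Many ribosomal protein genes rose and none fell. Of 43 large-subunit genes, 22 rose and none fell (median 0.59), and of 31 small-subunit genes 14 rose and none fell (median 0.57). RPL34 had 268 and 275 CPM with R and 118 and 108 CPM with the isotype control (log2 fold change 1.27, SE 0.0901, adjusted p = 1.54e-10). RPS18 had 1213 and 1367 CPM with R and 577 and 536 CPM with the isotype control (log2 fold change 1.21, SE 0.0823, adjusted p = 6.73e-11). RPL11 and RPS3A rose by 1.11 and 1.10 on the log2 scale. Together these genes took 6.89% and 7.17% of the counts with R and 5.14% and 4.81% with the isotype control. EEF1A1, the elongation factor that brings aminoacyl-tRNA to the ribosome, had 10004 and 11063 CPM with R and 4977 and 5285 CPM with the isotype control (log2 fold change 1.04, SE 0.0693, adjusted p = 5.27e-11). EIF5A, another translation factor, rose by 0.73, and of 24 initiation and elongation factors 2 rose and none fell (median 0.07, and −0.03 with library size only). Of 36 genes of ribosome biogenesis, none rose and 3 fell (median −0.20), namely NIP7 (−0.64), DDX21 (−0.59) and UTP20 (−0.61), which process or assemble preribosomes. Of 16 small nucleolar RNA host genes, SNHG5 (0.81) and SNHG17 (0.63) rose (median 0.14). Counts in all these lists stand beside 5.19% of all genes called higher and 5.02% called lower.

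Gene length and processed copies moved with these changes. Median log2 fold changes were 0.07 and 0.12 in the 2 deciles of shortest genes and −0.12 in the decile of longest genes, and the genes called higher had a median transcript length of 2186 bases against 3112 bases for those called lower. Of 325 processed pseudogenes, which are mostly copies of abundant messenger RNAs and can share their reads, 40 were called higher and 12 lower (median 0.24). After a correction for length 12 large-subunit and 11 small-subunit genes were called higher, and with library size only 11 and 10, while a fit of all 12 libraries called 6 and 4. The medians of these lists after the length correction were 0.50 and 0.51, and that of the heat shock list was 0.66. GC content moved with the fold change too, from a median of −0.09 in the decile of lowest GC content to 0.07 in the highest, and after a correction for it 16 large-subunit and 13 small-subunit ribosomal genes were called higher. The part of length and GC content in the results was not tested.

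Genes of glycolysis were also among those that rose. All 23 glycolysis genes tested had a positive log2 fold change, 6 of them passed the test, and the median was 0.36. PKM, pyruvate kinase, had 2796 and 2807 CPM with R and 1672 and 1423 CPM with the isotype control (log2 fold change 0.86, SE 0.078, adjusted p = 8.35e-09), and GAPDH and ENO1 rose by 0.69 and 0.68. PFKFB4, which makes the activator of phosphofructokinase, had 5.72 and 8.46 CPM with R and 2.25 and 1.97 CPM with the isotype control (log2 fold change 1.75, SE 0.232, adjusted p = 2.93e-06). ALDOA was called at 2.65 and 2.54 CPM with R and 1.5 and 1.01 CPM with the isotype control, but it overlaps another annotated gene, so its level is uncertain. PLOD1, a lysyl hydroxylase of collagen that is among the hypoxia-inducible genes, had 57.7 and 52.2 CPM with R and 16.5 and 15.1 CPM with the isotype control, a 3.48-fold change (log2 fold change 1.80, SE 0.109, adjusted p = 1.15e-11). VEGFA, the vascular growth factor, rose by 1.09 (SE 0.132, adjusted p = 7.99e-07), P4HA1 rose by 0.61 and MXI1, an antagonist of MYC, fell by 0.82, so that 3 of 16 genes of that list rose and 1 fell (median 0.10). Of 36 nuclear genes of the respiratory chain 2 rose, COX4I1 (0.78) and UQCRQ (0.62), with a median of 0.34, and none of 13 mitochondrially encoded proteins was called (median 0.35). These counts stand beside 5.19% of all genes called higher and 5.02% called lower. None of 22 genes of nucleotide and one-carbon synthesis was called (median −0.06).

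**Figure D3:**
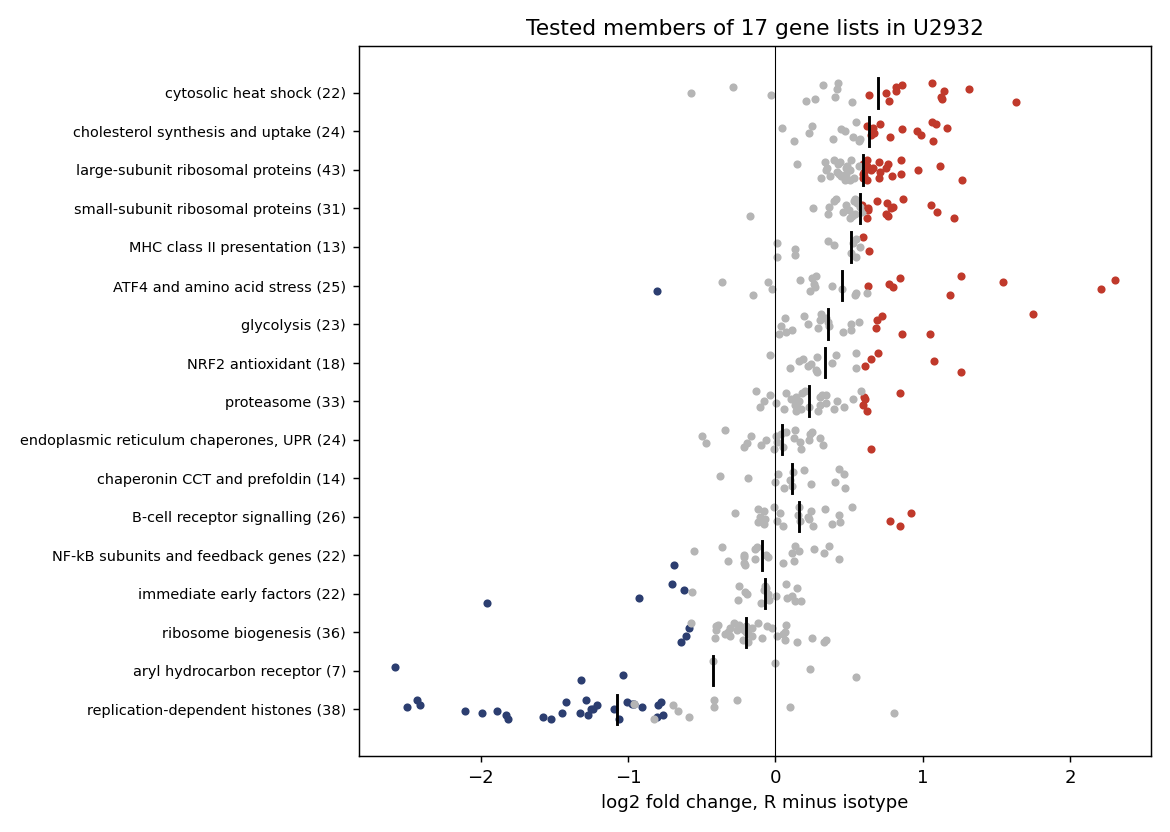
Each point is a tested member of a gene list, placed by its log2 fold change of R over isotype, with members called higher in red, called lower in blue and not called in grey, and a black bar at the list's median. The medians run from 0.69 for cytosolic heat shock genes to −1.08 for replication-dependent histones, and the number of tested members is given in parentheses.

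Among the lists examined, the lowest median was that of replication-dependent histone genes. These genes are transcribed during DNA synthesis, and their messenger RNAs end in a stem-loop in place of a poly(A) tail. Of 38 tested, none rose and 28 fell (median −1.08), and only 2 had a positive log2 fold change. DESeq2 called 19 of them lower. Their share of all counts was 0.0501% and 0.0518% with R and 0.0973% and 0.09995% with the isotype control. H2AC6 had 42 and 43.2 CPM with R and 149 and 149.9 CPM with the isotype control, a 3.51-fold lower level (log2 fold change −1.81, SE 0.0945, adjusted p = 3.96e-13). H2BC8 had 3.13 and 3.1 CPM with R and 15.4 and 17.8 CPM with the isotype control (log2 fold change −2.41, SE 0.175, adjusted p = 2.06e-10). H2BC11 and H3C10 fell by 1.33 and 1.29 on the log2 scale. Their sequences are close copies of each other, so reads may be split among them, and the selection of RNA in the libraries was not given in the sources used here. Few genes of DNA synthesis were called, beside 5.19% of all genes called higher and 5.02% called lower. Of 42 DNA replication genes, TYMS, thymidylate synthase, rose by 0.75 and PRIM1, a primase subunit, fell by 0.64 (median −0.05).

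The windows before H2AC6, at chr6:26123922-26124171 (plus strand), and H2BC8, at chr6:26216689-26216938 (minus strand), are shown with the CCAAT box in capitals, which 29 of 35 tested histone genes with a promoter held.
H2AC6: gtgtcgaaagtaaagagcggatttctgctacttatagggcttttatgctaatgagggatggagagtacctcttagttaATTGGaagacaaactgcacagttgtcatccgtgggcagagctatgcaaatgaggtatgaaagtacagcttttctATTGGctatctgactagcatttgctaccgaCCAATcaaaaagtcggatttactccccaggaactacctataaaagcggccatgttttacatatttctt
H2BC8: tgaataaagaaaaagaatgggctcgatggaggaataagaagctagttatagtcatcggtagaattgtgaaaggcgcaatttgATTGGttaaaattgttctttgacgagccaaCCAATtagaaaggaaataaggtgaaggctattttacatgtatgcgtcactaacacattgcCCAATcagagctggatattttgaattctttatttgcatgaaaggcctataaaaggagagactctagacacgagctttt
Among the genes called, 22 of 26 histone genes, which fell, and 8 of 10 cholesterol genes, which rose, held this box.

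Cell cycle genes that passed the test lay in both directions, beside 5.19% of all genes called higher and 5.02% called lower. Of 34 genes of G2 and mitosis, ANLN (0.75) and BIRC5, survivin (0.60), rose and the kinetochore genes NDC80 (−0.65) and CENPE (−0.67) fell (median −0.12). Of 17 G1 cyclins and inhibitors, CDKN2C, p18 (0.86), and CDKN1A, p21 (0.79), rose and BTG1, an antiproliferative factor, fell (−0.81), with a median of −0.05 that was 0.01 after a correction for GC content. Of 17 p53 targets, PLK3 rose (0.63) and TP53I3 fell (−0.63), with a median of −0.10. Among 30 genes of the BCL2 family, caspases and death receptors, BID, which links death receptors to mitochondria, rose by 0.94 (SE 0.1, adjusted p = 9.40e-08) and HRK, a BH3-only protein, fell by 0.63 (median 0.03, and −0.07 with library size only).

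Several of the most significant falls were in single genes of diverse function. DHRS2, a short-chain dehydrogenase, had 18 and 14.8 CPM with R and 62.1 and 57.6 CPM with the isotype control (log2 fold change −1.87, SE 0.117, adjusted p = 1.72e-11). RHOH, an atypical small GTPase family member of blood cells, had 103 and 119 CPM with R and 285 and 273 CPM with the isotype control (log2 fold change −1.33, SE 0.0918, adjusted p = 8.58e-11). TXNIP, the thioredoxin-interacting protein that restrains glucose uptake, had 33.1 and 38 CPM with R and 84.7 and 95 CPM with the isotype control (log2 fold change −1.34, SE 0.104, adjusted p = 6.25e-10). DHRS2 belongs to a list of 16 tested lysine deacetylase-linked genes and differentiation markers. In that list 4 fell, among them the acetyltransferases CREBBP (−1.04) and EP300 (−0.79), and KAT2A rose (0.71), with a median of −0.08. These counts stand beside 5.19% of all genes called higher and 5.02% called lower. ATAD2B, a bromodomain ATPase, MEX3C, an RNA-binding ubiquitin ligase, and RNF144B, a ubiquitin ligase, fell by 1.19, 1.05 and 1.07 on the log2 scale.

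Targets of the aryl hydrocarbon receptor, a ligand-activated transcription factor, were among the falls. CYP1A1, the cytochrome that is its classical target, had 1.83 and 1.82 CPM with R and 11.2 and 10.8 CPM with the isotype control, a 5.99-fold lower level (log2 fold change −2.58, SE 0.202, adjusted p = 6.98e-10). TIPARP, a feedback inhibitor of the receptor, had 69.8 and 66.8 CPM with R and 158 and 182 CPM with the isotype control (log2 fold change −1.32, SE 0.0956, adjusted p = 2.06e-10), and CYP1B1 fell by 1.04 (SE 0.196, adjusted p = 2.48e-04). Of the 7 tested genes of the list 3 fell and none rose (median −0.42). The counts in this and the next list stand beside 5.19% of all genes called higher and 5.02% called lower. In a list of 19 arrestin-domain and FOXO-linked genes, TXNIP, ARRDC3 (−1.06), ARRDC4 (−1.03) and FOXO3 (−0.88) fell, and TSC22D3, the glucocorticoid-induced leucine zipper (0.93), and GABARAPL1 (0.63) rose, with a median of −0.11. By fold, the largest falls at a mean of at least 10 CPM also included KDM7A, a histone demethylase (7.67 and 6.36 CPM with R and 17.1 and 21.4 CPM with the isotype control), and FST, follistatin (9.5 and 9.62 CPM with R and 25.1 and 26.5 CPM with the isotype control). The largest rises by the same rule also included SPR, sepiapterin reductase (24.5 and 25.9 CPM with R and 8.74 and 6.55 CPM with the isotype control, log2 fold change 1.72, SE 0.14, adjusted p = 1.44e-09), and the antisense transcript PARD6G-AS1 (18.3 and 18 CPM with R and 6.72 and 5.68 CPM with the isotype control, log2 fold change 1.55, SE 0.14, adjusted p = 7.50e-09), which cannot be told from its overlapping gene if counting ignored the strand.

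**Figure D4:**
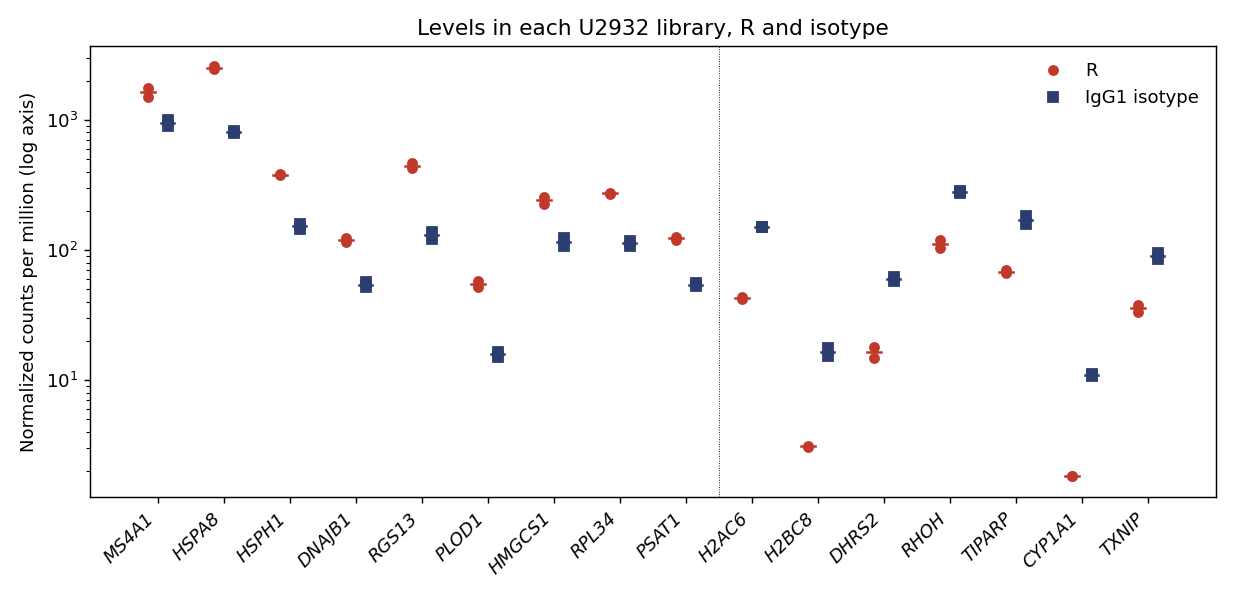
Levels of 16 genes in each library, in normalized CPM on a logarithmic axis, with R as red circles and the isotype control as blue squares, and a short bar at the mean of the 2 libraries. The 9 genes to the left of the dotted line are higher in both R libraries, and the 7 to the right are lower.

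Counts in the lists of signalling regulators below stand beside 5.19% of all genes called higher and 5.02% called lower, and a list with few calls is not set apart from these shares. RGS13, a regulator of G-protein signalling of germinal centre B cells, had 424 and 466 CPM with R and 122 and 137 CPM with the isotype control, a 3.44-fold change (log2 fold change 1.78, SE 0.0901, adjusted p = 2.86e-13). RGS1, which limits chemokine migration, had 106 and 138 CPM with R and 44.5 and 50.7 CPM with the isotype control (log2 fold change 1.36, SE 0.111, adjusted p = 1.44e-09) and RGS9 rose by 0.87, so that 3 of 11 genes rose (median 0.40). Among 25 germinal centre and plasma cell factors, 2 rose, RGS13 and BATF (0.84), and 2 fell, IRF8 (−0.69) among them (median −0.13). Of 24 genes of calcium handling and NFAT, 4 rose and none fell, with CALM3 at 0.74, the calcium channel subunit ORAI3 at 1.14 and the potassium channel KCNN4 at 0.97, though the median was −0.07, and 0.05 after the length correction. Of 22 immediate early factors none rose and 4 fell (median −0.07), with JUN at 3.3 and 4.64 CPM with R and 16 and 15 CPM with the isotype control (log2 fold change −1.96, SE 0.18, adjusted p = 9.16e-09). EGR3, a zinc-finger factor induced by receptor signals, fell by 0.70, JUND by 0.62 and DUSP1, a MAPK phosphatase, by 0.92 on the log2 scale. Of 13 DUSP, SPRY and SPRED inhibitors of MAPK DUSP2 rose (0.71) and 5 fell, DUSP16 (−1.47), DUSP10 (−0.62), DUSP8 (−1.89) and DUSP4 (−0.88) among them (median −0.19). Of 24 genes of the JNK and p38 cascade, MAP2K6, a kinase that activates p38, rose (0.70, median 0.13). Of 22 NF-kB genes, NFKB1 fell (−0.69, median −0.09).

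In the lists of cytokines, interferon-stimulated genes and antigen presentation, a few genes passed the test. The counts here stand beside 5.19% of all genes called higher and 5.02% called lower. Of 19 genes in the cytokine and chemokine list, CCL4 (0.98), CCL3 (0.61), CCL22 (0.59) and IL10 (0.59) rose (median 0.19). LTB (−0.61) and the receptor chain IL2RA (−0.94) fell. Of 26 interferon-stimulated genes, MX2 (0.66), BST2 (0.64), IFI35 (0.59) and IFIT2 (1.00) rose and GBP1 fell (−1.30), with a median of 0.19. All 13 genes of MHC class II presentation had positive values and HLA-DPB1 (0.63) and CIITA, the class II transactivator (0.60), passed the test (median 0.51), whereas none of 14 of MHC class I did (median 0.26). HLA genes are polymorphic and share reads with each other, so their levels are uncertain. Of 20 SOCS, PIM and STAT factors, JAK3 (0.81) and SOCS3 (1.11) rose (median 0.08, and −0.01 with library size only).

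For the remaining lists the same shares of all genes, 5.19% higher and 5.02% lower, apply. Among 17 trafficking receptors and genes of the KLF2 axis, ITGB7 (0.62) and GPR183 (0.61) rose (median 0.05, and −0.05 with library size only). Of 31 lysosome and autophagy genes, CTSZ (0.65) and GABARAPL1 rose (median 0.25), and of 17 actin and tubulin genes TMSB4X, which sequesters actin monomers, rose (0.66, median 0.27). Of 18 genes of Notch and Deltex, DTX2 (−0.96) and MAML2 (−0.76) fell (median −0.30), and of 7 metallothioneins and zinc transporters SLC30A5 rose (0.63) and SLC30A1 fell (−1.02), with a median of 0.03 that was −0.07 with library size only. None was called of 9 complement regulators and phagocytosis checkpoints (median 0.24), of 9 immunoglobulin constant regions (median 0.15, and −0.23 without a filter) or of 24 CLK kinases and SR splicing factors (median −0.14).

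The response to R was set beside that to OF in the same line. Both comparisons use the same 2 isotype libraries, so their values are given side by side and their likeness was not measured. HSPA8 had 2251 and 2287 CPM with OF beside 2447 and 2568 CPM with R, and RGS13 had 396 and 414 CPM with OF beside 424 and 466 CPM with R. H2AC6 had 39.7 and 40.5 CPM with OF beside 42 and 43.2 CPM with R, and CYP1A1 had 2.09 and 2.42 CPM beside 1.83 and 1.82 CPM. For MS4A1 the log2 fold change over the isotype control was 0.67 with OF and 0.77 with R, for HMGCS1 0.96 and 1.07, and for TXNIP −1.18 and −1.34. Between R and OF, 747 of 14635 genes had an unadjusted p under 0.05, close to the number this limit passes when no gene differs. At an adjusted p-value under 0.30, 1 of 14635 genes (0.00683%) was called. That gene was DTX2, a Deltex ubiquitin ligase, which had 7.61 and 6.63 CPM with R, 13.3 and 13.1 CPM with OF and 15.5 and 12.2 CPM with the isotype control. The R libraries lay below the others, and the log2 difference of R from OF was −0.89 (SE 0.157, adjusted p = 0.0875 in edgeR's test). An antisense gene overlaps DTX2, and reads of the pair cannot be told apart if counting ignored the strand. With the culture as a replicate block, 3 genes were called, which were DTX2 (adjusted p = 0.00162), the small cytoplasmic RNA RN7SL2 (adjusted p = 6.52e-07) and SOCS3 (adjusted p = 0.0919). With any 1 of the 6 U2932 libraries left out, the difference in DTX2 kept its sign, but DTX2 lost its call in 1 of these sets.

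TMD8, a DLBCL line of the same subtype treated in the same way, gave an independent set of libraries. Of the 682 genes called higher in U2932 with a value in TMD8, 571 (83.7%) were also higher in TMD8, with a median log2 fold change of 0.38. Of 559 called lower, 490 (87.7%) were lower (median −0.46), while 47.3% of all genes tested in both lines were higher in TMD8. RGS13 rose by 2.61 in TMD8 and SPR by 1.70, and CYP1A1 fell there, at −1.80. MS4A1 had a log2 fold change of 0.94, and the list medians were 0.40 for heat shock, 0.50 for cholesterol, 0.29 and 0.29 for ribosomal proteins and −0.60 for histones. For ATF4 genes the median was −0.06, and for endoplasmic reticulum chaperones it was 0.51.

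**Figure D5:**
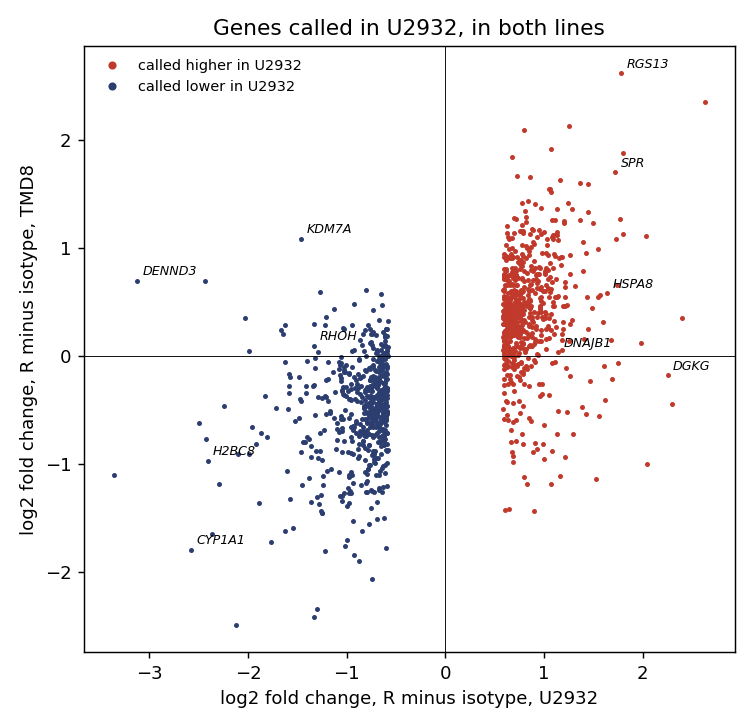
Each point is a gene called in U2932 that was also tested in TMD8, with its log2 fold change of R over isotype in U2932 on the x axis and in TMD8 on the y axis. Genes called higher in U2932 are red and 571 of 682 lie above 0 in TMD8, and genes called lower are blue and 490 of 559 lie below 0.

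The difference between the lines was tested directly in a fit of all 12 libraries. It was called for 52 of 16187 genes (0.321%), 23 with a more positive and 29 with a more negative change in U2932. With the culture as a replicate block it was called for 770 genes, with the block and a correction for GC content for 406, and by DESeq2 for 448. This count of 52 rests on single libraries and was 0 without either U2932 R library, without U2932 isotype replicate 2 or without TMD8 R replicate 1. It was 1 without U2932 isotype replicate 1, 2 without TMD8 R replicate 2, 164 without TMD8 isotype replicate 2 and 651 without TMD8 isotype replicate 1. DGKG, a diacylglycerol kinase, had 13.4 and 13.8 CPM with R and 3.19 and 2.52 CPM with the isotype control in U2932, and its log2 fold change was 2.25 there and −0.18 in TMD8. KDM7A fell in U2932 (−1.46) and rose in TMD8 (1.08). HSPA5 had a log2 fold change of 0.23 in U2932 and 1.45 in TMD8, and DNAJB1 of 1.14 and 0.03. DENND3, an activator of RAB12, had 0.413 and 0.442 CPM with R and 4.27 and 3.3 CPM with the isotype control, and its log2 fold change was −3.12 in U2932 and 0.69 in TMD8. KLHL24, a ubiquitin ligase adaptor, had −0.38 in U2932 and 0.80 in TMD8. The interferon-inducible RNA sensor IFIH1 (−1.13), the NF-kB subunit RELB (−1.31) and IGFBP4, which binds insulin-like growth factors (−2.50), fell in TMD8 and UGDH, which makes UDP-glucuronate, rose there (1.17), while their values in U2932 were 0.17, −0.05, −0.02 and −0.07 and were not called.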

How the data were processed

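Libraries had been prepared from total RNA of U2932 and TMD8 with a NEBNext Ultra II kit. Per the labels and the study's methods, the authors trimmed reads with Trim Galore 0.6.0, aligned them with STAR 2.7.0e to an Ensembl human reference (GRCh38) and deposited raw counts per gene, with no normalization. The annotation release, the selection of RNA and the use of strand were not given in the sources used here. GENCODE 29 was used for names, positions, GC content and length, and 58611 of 58884 identifiers were in it. Promoters came from RefSeq, for 10297 of 14629 tested symbols.

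From the deposited counts, edgeR 4.0.16 (R 4.3.3, limma 3.58.1) was run on the 6 U2932 libraries, with TMM scaling, the filterByExpr filter (minimum count 10) and a quasi-likelihood model of 1 mean per antibody. Benjamini-Hochberg adjustment covered all genes tested. A call needed at least 1.5-fold and an adjusted p under 0.10, a limit set here, or under 0.30 for R with OF, which follows the study. The difference between lines was fitted to all 12 libraries. With counts of 17226285 to 21191535 per library, the standard error of log2 fold changes had a median of 0.124. 

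Replicates with the same number were taken to share a culture, which the study's methods do not state. A replicate block was therefore run as an alternative. The deviations between replicates correlated at 0.104 for R and isotype, at −0.0478 for R and OF and at −0.0007 for OF and isotype. Counts of the R and isotype replicates differed by more than counting error (chi-square per degree of freedom 6.23 for R and 9.75 for the isotype control). Other alternatives were DESeq2 1.42.0, upper-quartile scaling, library size only, other filters, GC content and length corrections (lowess, span 0.3), other limits, other sets of libraries and leaving out each library. On simulated data for R with isotype in U2932, 14519 genes were tested, the changed ones included. In these, edgeR recovered 100% of 100 genes changed by 1 on the log2 scale and of 100 changed by 2, and called 4 unchanged genes. The simulation gave all genes 1 common spread, had no culture effect and changed only genes with ample counts. It therefore does not give the recovery or the error of the real comparison.

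Named genes are the 12 higher and 12 lower called genes with the smallest adjusted p whose libraries did not overlap, the 6 largest folds each way at a mean of at least 10 CPM, MS4A1, up to 5 called members of each list, genes called between R and OF, and the 5 with the smallest adjusted p each way between lines. RN7SL2 and SOCS3 under the block, and list members without a call, were named after their values were seen. Some genes that the rule selects are not reported here. The comparison and the gene lists were chosen with earlier results of these data known. Lists are described by counts and medians, without a test. Figures were drawn with matplotlib 3.10.9 in Python 3.11.15.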

Additional observations from a re-analysis of the deposited data

Results flagged for a closer look

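In 16 named genes, the change with R in U2932 differed from that in TMD8 by the test of the difference itself, in edgeR's fit of all 12 libraries. Its values below are log2 fold changes in U2932 minus those in TMD8, and the list rests on single libraries, as given with the counts between lines. More positive in U2932 were DGKG at 2.43 (SE 0.358, adjusted p = 0.0453), IGFBP4 at 2.48 (SE 0.341, adjusted p = 0.0399), PFKFB4 at 1.82 (SE 0.352, adjusted p = 0.0988) and SLC7A11 at 1.45 (SE 0.226, adjusted p = 0.0511). The same direction was seen for IFIH1 at 1.30 (SE 0.169, adjusted p = 0.0386), RELB at 1.26 (SE 0.18, adjusted p = 0.0399), DNAJB1 at 1.11 (SE 0.176, adjusted p = 0.0511) and PARD6G-AS1 at 1.00 (SE 0.196, adjusted p = 0.0997). More negative in U2932 were DENND3 at −3.81 (SE 0.43, adjusted p = 0.0175), KDM7A at −2.54 (SE 0.278, adjusted p = 0.0175), H2BC7 at −1.88 (SE 0.349, adjusted p = 0.081) and H2BC8 at −1.44 (SE 0.233, adjusted p = 0.0511). HSPA5 at −1.22 (SE 0.176, adjusted p = 0.0399), UGDH at −1.24 (SE 0.163, adjusted p = 0.0386), KLHL24 at −1.18 (SE 0.168, adjusted p = 0.0399) and RNF144B at −0.98 (SE 0.166, adjusted p = 0.0561) completed the list.

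IFIH1, IGFBP4, RELB, UGDH, HSPA5 and KLHL24 were called in TMD8, at −1.13, −2.50, −1.31, 1.17, 1.45 and 0.80, and not in U2932. DGKG, PFKFB4, SLC7A11, DNAJB1, RNF144B, H2BC7 and PARD6G-AS1 were called in U2932 and not in TMD8. KDM7A and DENND3 were called in both lines, lower in U2932 and higher in TMD8. H2BC8 was called lower in both lines, at −2.41 in U2932 and −0.97 in TMD8.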

How the results depend on the processing

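No named gene that was called changed sign in the alternatives run. List medians near 0 did so for mitochondrial and endoplasmic reticulum chaperones, the BCL2 family, trafficking receptors, SOCS factors, translation factors and metallothioneins with library size only, for G1 cyclins with the GC correction, and for calcium handling (0.05) and the BCL2 family (−0.02) with the length correction. The immunoglobulin median did so without a filter (−0.23), with the 4 libraries alone (−0.03), with all 12 (−0.18) and without any 1 library other than isotype replicate 1 (−0.19 to −0.01). Without U2932 isotype replicate 1 the medians of mitochondrial chaperones (−0.01) and germinal centre factors (0.01) changed sign, and without isotype replicate 2 that of trafficking receptors (−0.03). For R with isotype, library size only gave 480 higher and 1186 lower, DESeq2 455 lower, all 12 libraries in the fit 418 and 382, a 2-fold limit 186 and 253, and no fold limit 2460 and 2545. Leaving out 1 library gave 714 to 859 higher and 639 to 859 lower. For R with OF, the count of 1 became 0 with library size only, with all 12 libraries, at an adjusted p under 0.05 and at 2-fold, 2 with the length correction and with the replicate block and GC correction together, 3 with the replicate block or the 4 libraries alone, and 5 without a filter. Leaving out 1 library gave 2 to 9. For the difference between lines, the count of 52 became 448 with DESeq2, 265 without a filter, 770 with the replicate block, 406 with the block and GC correction, and 10 at an adjusted p under 0.05. Leaving out 1 library gave 0 to 651. The cause was not tested. The replicate block gave 778 higher and 750 lower with R against isotype and kept 1490 of the 1494 calls. DESeq2 called 59.0% of its genes in the higher direction, no filter 43.4% and the 2-fold limit 42.4%, against 50.9%. Named genes close to 1.5-fold, such as FTL, PSMB3, CIITA and CCL3, lost their call with library size only, with the GC correction and with no filter. Of 221 called genes that were named or list members, 73 lost their call in the fit of all 12 libraries and 51 with library size only. The GC correction took the call from 27 and no filter from 19. Of 102 counts of list members, 17 moved by over 1.5 times with the GC correction and 29 with library size only. With 2 libraries per group, the spread between cultures is known poorly.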
